A study of Mus musculus with 14 samples.

Results

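The first week of differentiation was examined in Ocy454 cells, a mouse osteocyte-like line, by comparing RNA collected after 7 days at 37 °C with RNA collected after 1 day. Each day had 2 libraries, so the comparison rests on 4 of the 14 samples of the series. The line proliferates at 33 °C with the help of a heat-labile large T antigen, and confluent plates are shifted to 37 °C, where the antigen is inactive and the cells mature. All libraries came from untreated cells of this line grown on plastic in serum-containing medium. The day 1 cells had therefore also left 33 °C, and day 7 was compared with an early point at 37 °C, not with dividing cells at 33 °C. Days of culture and days at 37 °C cannot be told apart in this design, and a single line grown without bone matrix is a limited model of cells embedded in bone. Of the 39179 genes in the deposited table, which gives CPM values (the reads of a gene per 1000000 reads counted on genes), 12725 had a CPM above 1 in at least 1 of the 8 differentiation libraries and were tested. The libraries of days 10 and 14 served only to estimate the spread.

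Osteoblasts build bone by secreting type I collagen and mineralizing it, under transcription factors such as RUNX2 and osterix (*Sp7*). Some of them become buried in the matrix as osteocytes, which form dendrites, hold phosphate and mineral in balance through proteins such as DMP1 and PHEX, and later secrete sclerostin (*Sost*), an inhibitor of Wnt signaling. Cells that lack oxygen stabilize HIF transcription factors, which raise glycolytic enzymes and a set of other targets, and bone cells are known to use the same targets in development.

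Between 28408577 and 33877054 reads per library were recovered from the CPM values of the 4 libraries, and 11882 to 11937 genes per library were above 1 CPM. The 10 genes with the most reads took 9.33% to 9.57% of each library and mitochondrial genes 1.01% to 1.06%. Of 13 listed genes of mitochondrial DNA, 6 had no reads in the 4 libraries, so this share may leave out part of the mitochondrial reads. Genes for ribosomal proteins took 1.22% to 1.23% at day 1 and 1.60% to 1.67% at day 7. The 2 libraries of a day were not duplicates of each other, since their reads gave a mean chi-square per gene of 2.28 at day 1 and 2.76 at day 7, where counting error alone gives about 1. Type I collagen, the main product of osteoblasts, was abundant on both days, with *Col1a1* at 34732 and 34687 CPM at day 1 and 27209.6 and 27895 CPM at day 7. The osteocyte genes *Sost* and *Mepe* had no reads at day 1. Several defining markers of other cell types were near 0. *Ptprc*, *Adgre1*, *Tyrobp*, *Pecam1*, *Cdh5*, *Adipoq*, *Myod1* and *Epcam*, which mark blood cells, macrophages, endothelium, fat, muscle and epithelium, had at most 0.118 CPM in any of the 4 libraries. Other members of the same lists were expressed, such as *Krt14*, *Vwf* and *Fcer1g*, and the markers of tendon and fibroblasts and of chondrocytes summed to 1038 to 4430 CPM and 251 to 1359 CPM per library.

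Day 7 cells differed from day 1 cells in 571 genes called higher and 588 called lower. Genes were called at a Benjamini-Hochberg adjusted p below 0.01 over all genes tested and a Log2FC above 1 or below -1 in limma's test on log2(CPM + 1). These are 4.49% of the genes tested for the higher and 4.62% for the lower direction, and the counts of each gene list below stand beside this background. The median Log2FC of all genes tested was -0.05. Fold changes on this scale understate the change of genes at low CPM, so ratios of mean CPM are given beside them where a gene was low. The libraries of a day are biological duplicates per the study's methods, which do not say how they were set up, and the p-values measure only the spread between these libraries. The size of the p-values also depends on settings of the fit, as described with the processing. In bulk RNA of this kind, a gene expressed by fewer cells and a gene expressed less per cell cannot be told apart.

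The lists with the largest share of members called higher were the hypoxia targets, osteoblast transcription factors and glycolysis genes, with 62.5%, 52.6% and 51.9% of their tested members. Those with the largest share called lower, among lists with 10 or more tested genes, were the small leucine-rich proteoglycans with 58.3%, the chemokines and inflammatory cytokines with 53.3% and the interferon-stimulated genes with 40.8%. By limma 0 genes of the DNA replication, mitosis and lysosome lists were called in either direction, while edgeR and DESeq2 each called 1 replication and 1 lysosome gene higher.

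**Figure D1:**
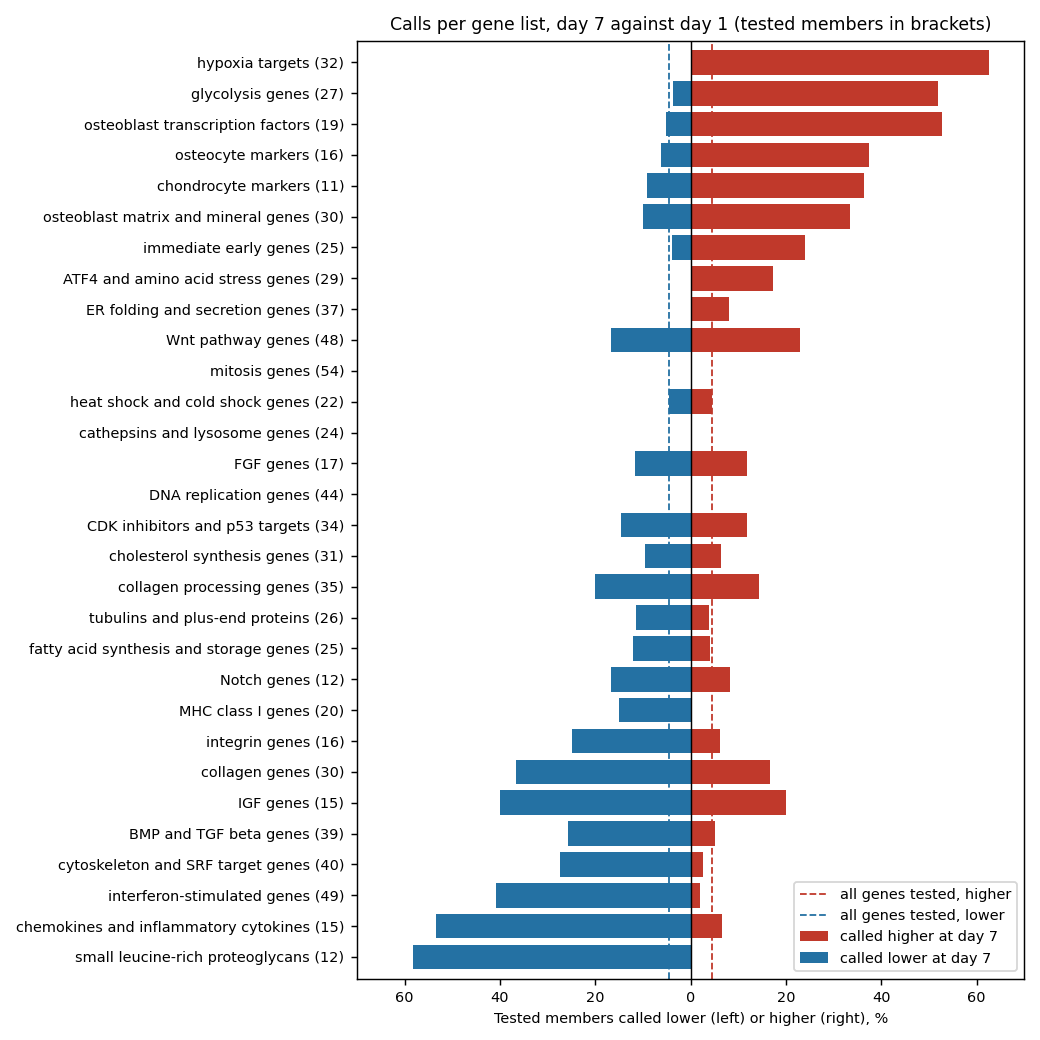
Percent of the tested members of each gene list called higher (red, right) or lower (blue, left) at day 7 than at day 1, for lists with at least 10 tested members (number in brackets), with dashed lines at the 4.49% and 4.62% of all genes tested. Hypoxia targets reach 62.5% on the right and small leucine-rich proteoglycans 58.3% on the left.

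*Ndufa4l2*, which encodes a mitochondrial protein that lowers oxygen use, showed the largest Log2FC on this scale among called genes that averaged 5 CPM or more. It had 4.34 and 3.61 CPM at day 1 and 316 and 322 CPM at day 7, an 80.4-fold rise (Log2FC 6.01, standard error 0.05, adjusted p = 1.1e-31 in limma). *Col22a1*, a collagen of tissue junctions, rose from 3.54 and 2.42 to 193 and 195 CPM. The day 1 and day 7 values of these genes were far apart, with the replicates of a day close together at day 7. *Ifitm5*, a membrane protein of mineralizing osteoblasts mutated in a brittle bone disease, went from 3.04 and 3.14 to 186 and 184 CPM (Log2FC 5.51, standard error 0.05, limma). *Wif1*, a secreted Wnt inhibitor, rose from 6.97 and 5.21 to 282 and 293 CPM. In mean CPM the 124-fold rise of *Ankrd37* and the 85.4-fold rise of *Gpr35* were larger than that of *Ndufa4l2*, and edgeR, DESeq2 and a pseudocount of 0.1 also put *Ankrd37* above it. The other large increases were in *Car9*, *Ankrd37*, *Col15a1*, *Ncf1*, which encodes a subunit of the phagocyte NADPH oxidase, *Slc8a3*, a sodium-calcium exchanger, and *Hrc*, a calcium-binding protein of the sarcoplasmic reticulum. *Ncf1* rose 50.9-fold, *Slc8a3* 52.6-fold and *Hrc* 69.8-fold in mean CPM.

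The most negative Log2FC on this scale was that of *Kif26b*, an unconventional kinesin, with 207 and 203 CPM at day 1 and 11.1 and 12.7 CPM at day 7 (Log2FC -4.00, standard error 0.07, adjusted p = 2.7e-26 in limma). *Wisp2*, now named *Ccn5*, a secreted protein that responds to Wnt, fell from 110.2 and 109 to 6.84 and 7.88 CPM. *Mmp13*, the collagenase of bone and cartilage, fell from 91.0 and 97.4 to 6.15 and 6.20 CPM. In each of these genes the lower of the day 1 values was more than 10-fold above the higher day 7 value. *Cyp1b1*, a cytochrome P450 enzyme, went from 275 and 279 to 23.4 and 23.2 CPM. *Acta2*, the actin of smooth muscle and myofibroblasts, had 1449.7 and 1454 CPM at day 1 and 141 and 139.8 CPM at day 7. *Ogn*, *C1qtnf3*, *Col7a1*, *Col6a5* and *Ifit1* completed the 10 largest decreases and are described with their groups. In mean CPM *Ifit1* fell 19.8-fold and *Kif26b* 17.2-fold.

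**Figure D2:**
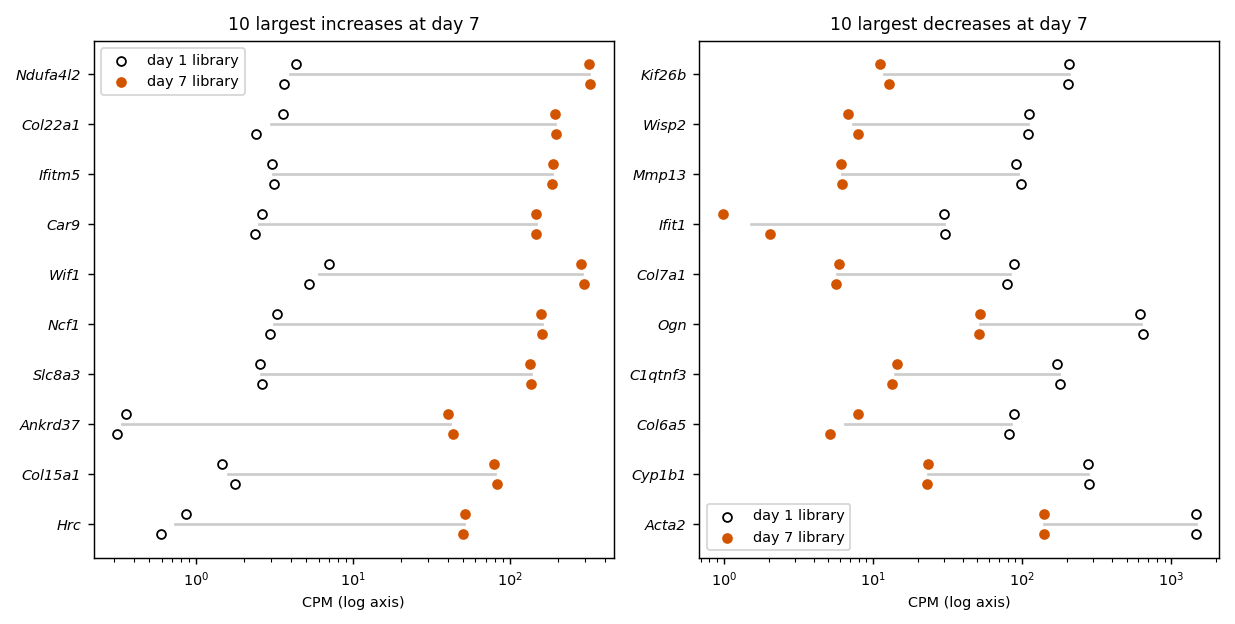
CPM (log axis) of the 10 genes with the largest increases (left) and the 10 with the largest decreases (right) at day 7, with 1 point per library, open for day 1 and filled for day 7, and a grey line joining the means. In every gene shown the 2 libraries of a day lie much closer to each other than to the other day, the widest spread being that of *Ifit1* at day 7 (0.990 and 2.04 CPM).

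Of 19 tested transcription factors of the osteoblast lineage, 10 were called higher, 1 lower and 8 were not called, with a median Log2FC of 1.03 beside -0.05 for all genes. *Dlx3*, a homeobox factor of bone and teeth, rose most, from 2.42 and 1.79 to 81.5 and 84.7 CPM (Log2FC 4.77, standard error 0.08, adjusted p = 2.8e-26 in limma). *Sp7* had 131 and 129 CPM at day 1 and 726 and 708 CPM at day 7, a 5.51-fold rise. *Tcf7*, a nuclear partner of beta-catenin, rose from 111 in both libraries to 615 and 613 CPM. *Runx2*, the factor that sets up the lineage, changed less. Its 164 and 163 CPM at day 1 became 341 and 326 CPM at day 7, a Log2FC of 1.03 (standard error 0.04) just past the threshold, which fell to 0.996 without the day 7 library of replicate 1. *Mef2c* (Log2FC 2.13), a MADS-box factor of bone and muscle chosen here after its values were seen, was also called higher. *Twist2*, which restrains osteoblast differentiation, went the other way, from 16.0 and 14.5 to 4.53 and 5.03 CPM (Log2FC -1.49, standard error 0.11, limma).

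In the list of osteoblast matrix and mineralization genes, the 4 collagen genes of this list had Log2FC between -0.33 and 0.49 and were not called, while 4 of 12 other matrix genes, 3 of 7 mineralization genes and 3 of 7 receptors were called higher. In all, 10 of 30 tested members were higher and 3 lower. *Ibsp*, bone sialoprotein, rose from 224 and 217 to 5798 and 5729 CPM, a 26.1-fold increase (Log2FC 4.70, standard error 0.04, adjusted p = 1.1e-31 in limma). *Smpd3*, the neutral sphingomyelinase needed for matrix mineralization, rose from 37.1 and 35.7 to 1072 and 1087 CPM. *Alpl*, the alkaline phosphatase that frees phosphate for mineral, went from 412 in each day 1 library to 1921 and 1903 CPM. The days did not overlap in *Ibsp*, *Smpd3* and *Alpl*, which were named for large changes or as fixed genes. Of the 7 mineralization genes 4 were not called. *Pth1r*, the receptor for parathyroid hormone, rose from 203 and 205 to 1094 and 1143 CPM. The osteocalcin gene *Bglap2* was low, at 0.207 and 0.220 CPM at day 1 and 3.12 and 3.84 CPM at day 7 (Log2FC 1.88). This call was lost with a pseudocount of 5 (Log2FC 0.70). *Bglap*, another osteocalcin gene, was called higher (Log2FC 2.45), and also with a pseudocount of 5 (Log2FC 1.21). The near-identical copies *Bglap*, *Bglap2* and *Bglap3* can share reads.

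*Col1a1*, which encodes the main chain of type I collagen, was not called (Log2FC -0.33, standard error 0.09, adjusted p = 0.0015 in limma), nor was *Spp1*, osteopontin, with 372 and 374 CPM at day 1 and 337 and 327 CPM at day 7. *Postn*, periostin, a protein of the periosteum and of fibroblasts, fell from 1623 and 1717 to 266 and 259.8 CPM. *Omd*, osteomodulin, fell from 156 and 164 to 47.5 and 43.0 CPM. *Pdgfrb*, the receptor of PDGF found on mesenchymal progenitors, went from 413 and 424 to 150.3 and 153 CPM.

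*Dmp1*, *Ibsp*, *Mepe* and *Spp1* encode related acidic matrix proteins and lie side by side on chromosome 5 of GRCm39, between 104345340 (the start of *Dmp1*) and 104589235 (the end of *Spp1*), all on the plus strand. These neighbors did not move together. *Ibsp* and *Dmp1* rose, *Spp1* had a Log2FC of -0.17, and *Mepe*, which marks late osteocytes, did not pass the filter on low values. *Mepe* had no reads at day 1 and 0.450 and 0.106 CPM at day 7.

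Osteocyte markers were partly induced by day 7. Of 16 tested, 6 were called higher and 1 lower, and the median Log2FC was 0.60. *Dmp1*, which drives mineral formation around osteocytes, had 0.915 and 1.00 CPM at day 1 and 22.3 and 20.5 CPM at day 7 (Log2FC 3.51, standard error 0.08, adjusted p = 7.0e-23 in limma). *Phex*, a peptidase that controls phosphate, rose from 0.767 and 1.16 to 22.6 and 26.6 CPM. *Tnfrsf11b*, which encodes osteoprotegerin, a decoy receptor that blocks osteoclast formation, rose from 15.1 and 13.0 to 241 and 213 CPM. Its partner *Tnfsf11*, RANKL, stayed low, with 1.21 and 0.910 CPM at day 1 and 0.750 and 0.810 CPM at day 7, and was not called (Log2FC -0.21, standard error 0.15, adjusted p = 0.24 in limma).

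*Sost* was at the edge of detection. None of the 65759468 reads at day 1 was on it, so that a level of at most 0.0456 CPM (3 reads over both libraries) cannot be told from 0, and it had 0.660 and 0.669 CPM at day 7, at least 14.6-fold higher. On the log2(CPM + 1) scale its Log2FC of 0.73 was not called, whereas edgeR and DESeq2 on the recovered reads called 8 osteocyte markers higher, with *Sost* and *Dkk1*, another Wnt inhibitor, as the additional genes. *Pdpn*, podoplanin, an early marker of the embedding osteocyte, had a mean of 28.2 CPM at day 1 and 22.6 CPM at day 7 and was not called (Log2FC -0.31). *Kcnk2*, a mechanosensitive potassium channel, fell from 14.6 and 14.9 to 3.06 and 2.68 CPM.

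The 6 genes that the study considered as surface markers of differentiation were chosen by it partly on the same differentiation series, from day 14 against the day 1 libraries used here, and on another cell system, so their direction is not independent evidence. By day 7, 3 of them had been called higher. *Ackr3*, a scavenger receptor for CXCL12, rose from 3.66 and 2.85 to 84.0 and 83.4 CPM (Log2FC 4.32, standard error 0.06, limma). *Car9* rose from 2.63 and 2.35 to 146 and 145 CPM, and *Cd200*, a surface ligand that restrains myeloid cells, from 14.6 and 15.3 to 101 and 94.3 CPM. The other three were not called. *Itgb3* (CD61, integrin beta-3), which the study used for its sort, had 10.3 and 10.9 CPM at day 1 and 13.9 and 11.0 CPM at day 7, so the lowest day 7 value lay next to the day 1 values (Log2FC 0.20, standard error 0.08, adjusted p = 0.039 in limma). *Spn*, CD43, had a Log2FC of 0.74 (standard error 0.08). *Ptger4*, a receptor for prostaglandin E2, had 1.51 and 1.41 CPM at day 1 and 1.80 and 1.30 CPM at day 7, with overlapping groups (Log2FC 0.05, standard error 0.13).

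**Figure D3:**
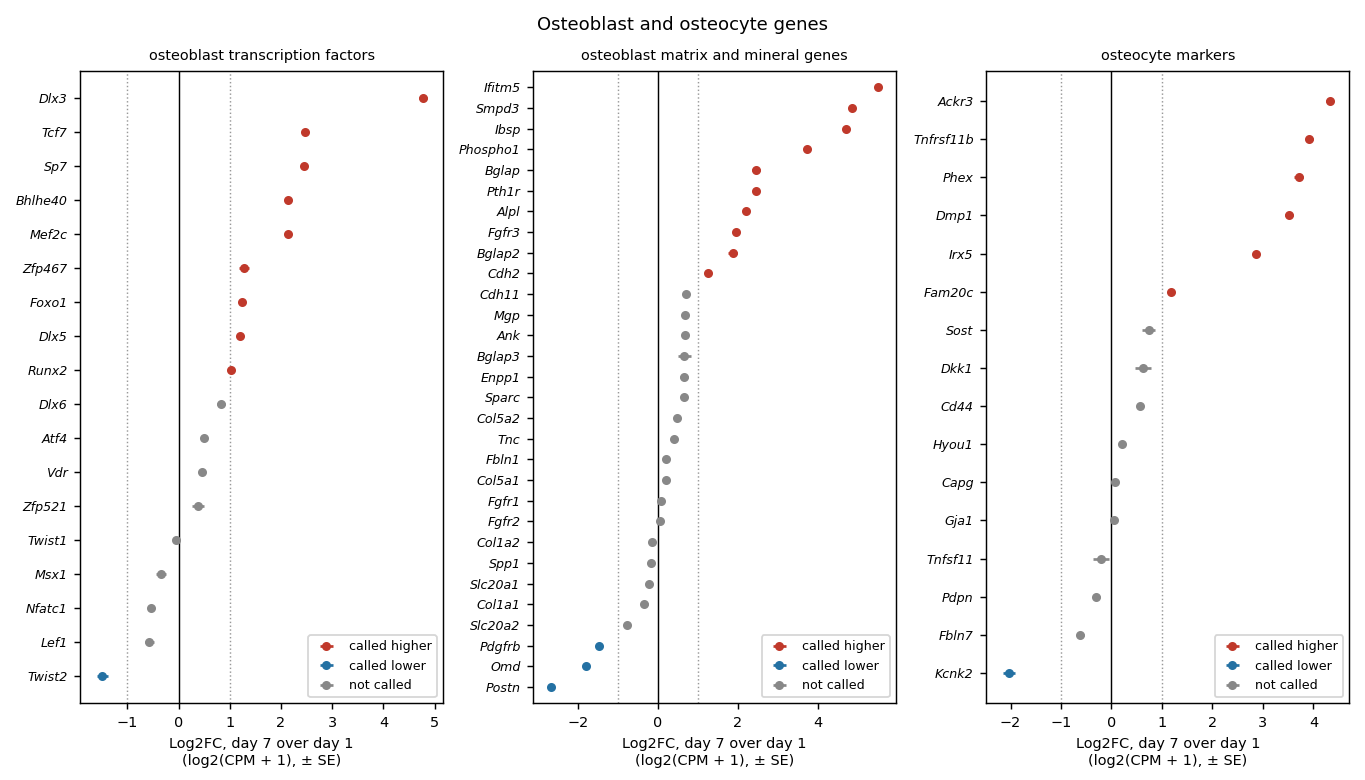
Log2FC between day 7 and day 1 on the log2(CPM + 1) scale with its standard error (horizontal bar) for the tested osteoblast transcription factors (all but 1), osteoblast matrix or mineral genes and osteocyte markers, colored by call, with dotted lines at -1 and 1. *Dlx3* lies farthest right among the transcription factors with a Log2FC of 4.77, and type I collagen genes lie left of 0 and are not called.

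Hypoxia targets were the list with the largest share of members called higher. Of 32 tested genes, 20 were called higher and 0 lower, with a median Log2FC of 1.73. In the lower direction 4 had an unadjusted p below 0.05 in limma, and edgeR and DESeq2 called 0 lower as well. The list holds 26 targets, of which 19 were higher, and 8 genes of the oxygen-sensing machinery, of which 3 were higher, with *Egln1* and *Egln3* in both sets. Beside *Ndufa4l2*, large increases were found in *Car9*, a carbonic anhydrase that exports acid (Log2FC 5.39, standard error 0.05, adjusted p = 1.1e-31 in limma), and *Ankrd37*, which had 0.354 and 0.314 CPM at day 1 and 39.9 and 42.9 CPM at day 7.

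*Egln3*, a prolyl hydroxylase that marks HIF for degradation and is itself a HIF target, rose from 2.89 and 2.29 to 87.7 and 86.7 CPM (Log2FC 4.62, standard error 0.07, limma). *Gpr35*, a receptor for metabolites such as kynurenic acid, rose from 0.649 and 0.251 to 40.0 and 36.9 CPM. The HIF subunits differed from each other. *Hif1a* had 228 and 236 CPM at day 1 and 204 and 189.5 CPM at day 7 and was not called (Log2FC -0.24), while *Epas1*, which encodes HIF-2 alpha, rose from 4.93 and 5.27 to 88.3 and 87.4 CPM (Log2FC 3.87, standard error 0.05, limma). *Egln2* and *Vhl*, which act in the same degradation step, were not called, with Log2FC of -0.21 and -0.02. *Gpr35* and these sensor genes, like *Bnip3*, a mitophagy receptor that rose from 6.94 and 6.30 to 87.6 and 91.5 CPM, and *Vegfa*, the angiogenic growth factor that rose from 54.7 and 53.4 to 251 and 249 CPM, were chosen for description after their values were seen. Oxygen in the cultures, medium change and cell density were not part of the data, and their part in these differences was not tested.

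Of 27 tested genes of glycolysis 14 were called higher and 1 lower, with a median Log2FC of 1.26. The increases were found in 2 of 5 transporters and 12 of 22 enzymes. *Slc16a3*, the lactate exporter MCT4, rose from 3.25 and 2.67 to 61.5 and 63.8 CPM (Log2FC 4.01, standard error 0.06, adjusted p = 2.4e-26 in limma). *Pdk1*, the kinase that keeps pyruvate out of mitochondria, rose from 17.8 and 18.4 to 210.4 and 203 CPM. *Aldoc*, an aldolase isoform, rose from 3.98 and 3.64 to 41.0 and 39.4 CPM. The kinase *Pdk4*, which acts on the same enzyme as *Pdk1* but responds to fasting, fell from 37.5 and 36.7 to 14.5 and 13.0 CPM. The abundant enzyme *Ldha*, lactate dehydrogenase A, chosen after its values were seen, had 493 and 495 CPM at day 1. At day 7 it had 2443 and 2452 CPM. *Gapdh*, *Pgk1* and *Pgam1* have many near-identical pseudogenes in the mouse genome, so their counts (*Gapdh* 59.5 and 60.9 CPM at day 1) may hold only part of their reads.

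**Figure D4:**
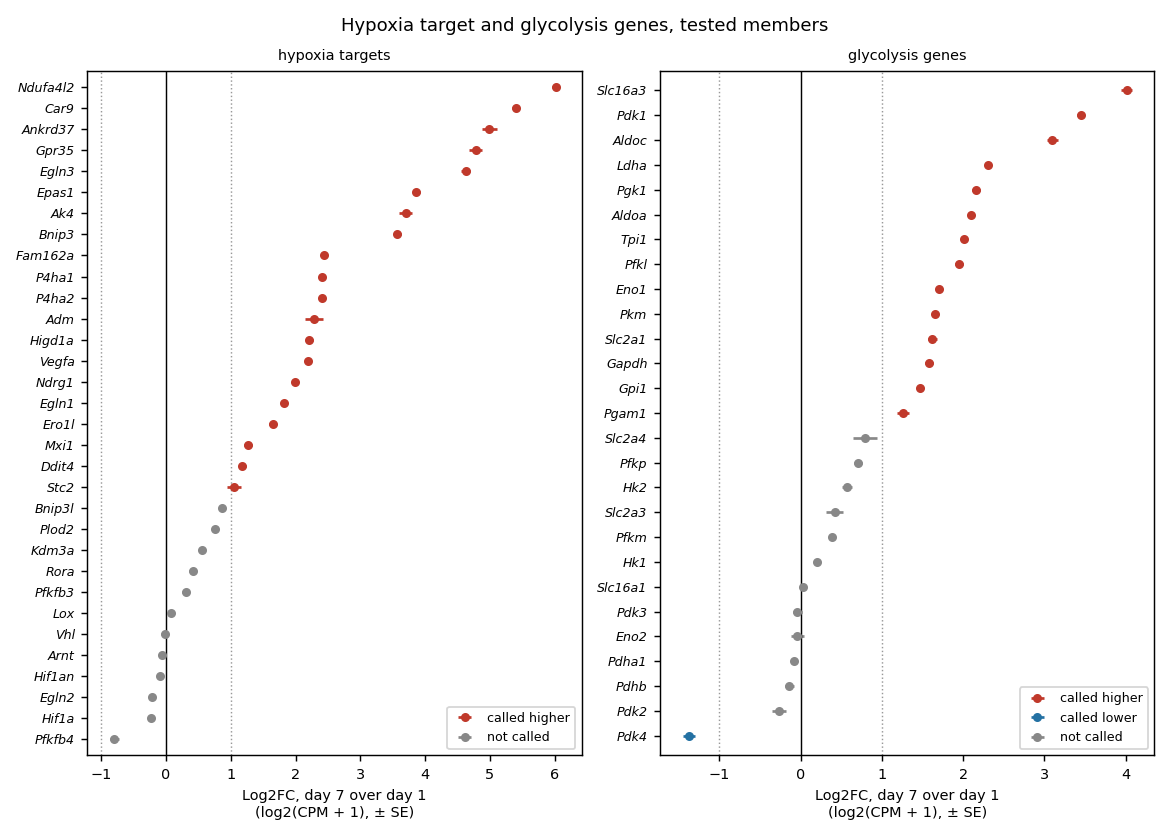
Log2FC between day 7 and day 1 on the log2(CPM + 1) scale with its standard error for every tested hypoxia target (left) and glycolysis gene (right), colored by call, with dotted lines at -1 and 1. The hypoxia targets reach from -0.80 (*Pfkfb4*) to 6.01 (*Ndufa4l2*) and the glycolysis genes from -1.38 (*Pdk4*) to 4.01 (*Slc16a3*).

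HIF binds DNA at a short core, ACGTG, that textbooks describe in the promoters of its targets. The 250 bases before the RefSeq start site were therefore read for the hypoxia targets with the largest Log2FC that have an entry in the RefSeq promoter table (GRCm38.p6). They are shown 5′ to 3′ on the strand of the gene because these genes moved together, with the core in capitals as ACGTG or, for a core on the other strand, CACGT.
Car9, chr4:43506776-43507025, plus strand: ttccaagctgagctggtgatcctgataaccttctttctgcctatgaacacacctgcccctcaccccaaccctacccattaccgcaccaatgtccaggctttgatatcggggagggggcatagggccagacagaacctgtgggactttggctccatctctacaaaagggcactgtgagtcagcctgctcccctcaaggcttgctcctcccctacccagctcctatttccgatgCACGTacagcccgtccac
Ankrd37, chr8:45999851-46000100, minus strand: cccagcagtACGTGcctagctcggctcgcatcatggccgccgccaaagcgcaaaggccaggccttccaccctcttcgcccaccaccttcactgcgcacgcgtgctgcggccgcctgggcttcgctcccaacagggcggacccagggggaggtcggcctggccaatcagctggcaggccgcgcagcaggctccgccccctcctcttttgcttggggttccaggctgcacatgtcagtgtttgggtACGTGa
Gpr35, first start site, chr1:92972869-92973118, plus strand: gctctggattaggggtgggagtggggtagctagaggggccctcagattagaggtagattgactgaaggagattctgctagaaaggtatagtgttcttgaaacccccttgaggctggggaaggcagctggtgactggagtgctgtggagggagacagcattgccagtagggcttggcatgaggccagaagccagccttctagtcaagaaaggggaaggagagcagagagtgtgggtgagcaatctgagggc
Gpr35, other start site, chr1:92978653-92978902, plus strand: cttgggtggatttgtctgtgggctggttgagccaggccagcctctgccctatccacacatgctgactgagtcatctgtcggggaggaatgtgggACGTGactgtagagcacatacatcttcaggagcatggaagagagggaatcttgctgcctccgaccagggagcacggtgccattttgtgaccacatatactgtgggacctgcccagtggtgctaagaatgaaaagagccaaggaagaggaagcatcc
Egln3, chr12:54203875-54204124, minus strand: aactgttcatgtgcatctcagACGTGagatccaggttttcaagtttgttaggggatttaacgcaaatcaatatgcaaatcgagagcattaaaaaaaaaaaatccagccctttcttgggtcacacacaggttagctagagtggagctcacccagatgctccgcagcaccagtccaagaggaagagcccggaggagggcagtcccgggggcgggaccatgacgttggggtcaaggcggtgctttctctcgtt

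The core ACGTG was found on either strand of the 250-base window of at least 1 start site in 14 of the 17 called hypoxia targets with an entry (82.4%) and in 18 of all 26 tested ones (69.2%). In comparison, 25.4% of the 9861 tested genes with an entry and 16.6% of all 32851 promoter windows of this length hold it. Of the 14 glycolysis genes called higher, 7 hold it (50%), as do 13 of the 25 tested ones with an entry (52%), and of all genes called higher with an entry 25.2%. In *Car9* the match lies 18 bases before the start site and in *Egln3* 229 bases before it. A match is a description of these letters and not a measured site of binding.

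The genes of the extracellular matrix changed in their proportions. Collagen genes went both ways, with 5 of 30 tested called higher and 11 lower. *Col22a1* and *Col15a1* were among the largest increases of all genes, and *Col15a1*, a basement membrane collagen, had 1.45 and 1.76 CPM at day 1 and 78.3 and 82.7 CPM at day 7. *Col13a1*, a transmembrane collagen of cell junctions, rose from a mean of 0.485 to 24.8 CPM (Log2FC 4.12, standard error 0.09, limma). *Col11a2*, a fibrillar collagen known from cartilage, rose from 129 and 128 to 1097 and 1139.5 CPM. Decreases were found in 5 of the 6 tested genes for type VI and type VII chains. *Col6a5*, a type VI chain, fell from 87.7 and 81.0 to 7.92 and 5.14 CPM (Log2FC -3.53, standard error 0.12, limma). *Col7a1*, the anchoring fibril collagen of skin, fell from 87.4 and 79.1 to 5.88 and 5.63 CPM, and *Col27a1*, a fibrillar collagen of cartilage, from 40.5 and 39.5 to 5.82 and 4.68 CPM. *Col3a1*, the fibrillar collagen of soft connective tissue, chosen after its values were seen, fell from 3278 and 3375 to 520.1 and 500.2 CPM.

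Small leucine-rich proteoglycans bind collagen fibrils and set their diameter. Of 12 tested, 7 were called lower, 0 higher and 5 were not called, with a median Log2FC of -1.30. In the higher direction 2 had an unadjusted p below 0.05 in limma, and edgeR and DESeq2 called 0. *Fmod*, fibromodulin, fell from 4187 and 4304 to 985 and 940.3 CPM (Log2FC -2.14, standard error 0.04, adjusted p = 3.0e-25 in limma). *Ogn*, osteoglycin, fell from 612 and 642 to 52.4 and 51.7 CPM, and *Aspn*, asporin, from 152 and 151 to 17.7 and 17.2 CPM. *Ecm2*, *Aspn*, *Omd* and *Ogn* are neighbors in this order on chromosome 13 of GRCm39, all on the plus strand between 49658236 and 49780412, and all were called lower. *Ecm2* was the least abundant, at 3.60 and 3.23 CPM at day 1 and 0.630 and 0.563 CPM at day 7, and lost its call with a pseudocount of 5 (Log2FC -0.59). Biglycan (*Bgn*) was not called, with 2332 and 2414 CPM at day 1 and 2276 and 2285 CPM at day 7.

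Some markers of tendon and fibroblasts were also lower at day 7, while 3 tested ones were not called. *Fmod* belongs to both this list and the proteoglycans. Of 13 listed, 8 were tested, 4 of them called lower (*Ly6a*, *Fmod*, *Ly6c1* and *Cd34*, the last not with a pseudocount of 5) and 1 higher, *Pi16*, from 0.295 and 0.125 to 1.32 and 2.04 CPM, a call lost with a pseudocount of 5 and without the day 7 library of replicate 2. *Ly6a*, a surface antigen of mesenchymal progenitors, fell from 13.9 and 15.7 to 2.76 and 1.76 CPM, and *Ly6c1* from 8.65 and 10.4 to 1.68 and 2.15 CPM. Their summed level ranged from 4317 to 4430 CPM at day 1 and from 1038 to 1078 CPM at day 7, nearly all of it *Fmod*. *Tnmd*, the defining tendon gene, had 0 reads in all 4 libraries. The part of such cells in the matrix result was not tested.

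Enzymes that modify collagen also went both ways. Of 35 tested, 5 were called higher, 7 lower and 23 were not called. *Loxl4*, a lysyl oxidase that crosslinks collagen, rose from 64.1 and 63.0 to 817 and 814 CPM (Log2FC 3.66, standard error 0.04, adjusted p = 3.2e-31 in limma), while *Loxl1* of the same family fell from 75.2 and 73.6 to 16.7 and 17.3 CPM. Among prolyl 4-hydroxylase subunits, which stabilize the collagen helix, *P4ha1* rose from 172 in both libraries to 926 and 918 CPM. *P4ha2* had a Log2FC of 2.41, and *P4ha3* fell from 26.0 and 24.7 to 4.89 and 5.17 CPM. *Leprel1*, now named *P3h2*, a prolyl 3-hydroxylase, rose from 5.61 and 5.33 to 100.4 and 101 CPM.

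Genes of the contractile cytoskeleton include many targets of the serum response factor SRF. Of 40 tested, 11 were called lower, 1 higher and 28 were not called, with a median Log2FC of -0.62. The calls in the lower direction were 9 of 23 contractile and SRF-related genes and 2 of 8 LIM-domain genes, while 1 of 9 genes of actin bundles and protrusions was higher and the median of that group was 0.07. Beside *Acta2*, *Actg2*, an enteric smooth muscle actin, fell from 35.9 and 35.7 to 5.31 and 4.40 CPM. *Ankrd1*, a nuclear ankyrin protein induced by stretch, fell from 47.8 and 50.9 to 7.53 and 7.18 CPM (Log2FC -2.59, standard error 0.10, limma). *Cdc42ep3*, an effector of CDC42, was the gene called higher, from 43.8 and 43.1 to 125 and 119 CPM. *Srf* itself had 135 and 129.7 CPM at day 1 and 117 and 116 CPM at day 7 and was not called (Log2FC -0.18). The CArG box, the site of SRF, was searched in its strict form (CC, 6 bases of A or T, GG), so that boxes with a mismatch are not counted. It was in the 250 bases before the start of 1 of 8 members called in either direction with an entry (12.5%). The same held for 8 of all 34 tested members with an entry (23.5%) and for 1.48% of the tested genes with an entry.

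Tubulins and proteins of microtubule plus ends gave 1 gene higher and 3 lower of 26 tested, all of them tubulins. These are 3.85% and 11.5%, beside 4.49% and 4.62% of all genes tested. *Tubb3*, a beta-tubulin best known from neurons, rose from 28.6 and 27.6 to 90.0 and 83.4 CPM. *Tubb2a* fell from 75.0 in both libraries to 19.2 and 18.7 CPM, and *Tuba1a* from 325 and 318 to 152 and 157 CPM. *Tubb2b* was called lower at 0.540 and 0.950 CPM at day 7, a call lost with a pseudocount of 5 and without the day 7 library of replicate 1. Tubulin genes resemble each other closely and can share reads. *Clip2*, which encodes a plus-end protein, had 81.7 and 80.3 CPM at day 1 and 50.9 and 55.9 CPM at day 7 and was not called (Log2FC -0.59, standard error 0.05, adjusted p = 1.4e-10 in limma). In the whole list 21 genes had a Log2FC below 0 at an unadjusted p below 0.05 in limma, most of them too small a change to be called.

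Integrins, which hold cells to the matrix, gave 4 of 16 lower and 1 higher. *Itga10*, a collagen receptor of cartilage, rose from 71.8 and 73.7 to 250.3 and 255 CPM. The collagen receptor subunits *Itga11* and *Itga1* fell, the former from 277 and 283 to 81.2 and 78.5 CPM and the latter from 27.4 and 28.7 to 6.12 and 6.30 CPM. *Itgb7*, a leukocyte subunit, went from a mean of 7.14 to 2.01 CPM, a call lost with a pseudocount of 5, at which 2 integrins were called lower.

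Wnt signaling instructs osteoblasts through frizzled and LRP receptors and is held back by secreted inhibitors. Of 48 tested genes of the pathway, 11 were called higher and 8 lower, while edgeR and DESeq2 on the recovered reads each called 18 higher and a pseudocount of 5 left 5 lower. Ligands were split, with 3 of 13 higher and 3 lower. Of 18 receptors 4 were higher and 2 lower, and of 9 antagonists 3 were higher and 2 lower. Among the antagonists *Wif1* rose 47.2-fold in mean CPM (Log2FC 5.36, standard error 0.07, limma) and *Notum*, a lipase that inactivates Wnt ligands, rose from 1.62 and 2.04 to 11.7 and 9.93 CPM. *Sfrp2*, a soluble frizzled-related protein, fell from 233 and 237 to 32.6 and 30.5 CPM. *Rspo3*, an R-spondin that amplifies Wnt signals, fell from 24.9 and 27.1 to 6.15 and 6.12 CPM.

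In the BMP and TGF beta families 10 of 39 tested genes were called lower and 2 higher (4 higher in edgeR and DESeq2). *Tgfb3*, a TGF beta ligand, fell from 219 and 228 to 29.3 and 29.6 CPM (Log2FC -2.89, standard error 0.05, adjusted p = 9.6e-26 in limma). *Ltbp2*, related to proteins that tether latent TGF beta in the matrix, fell from 27.5 and 26.3 to 4.95 and 3.73 CPM, and *Tgfbi*, a TGF beta-induced adhesion protein, from 22.5 and 21.6 to 4.20 and 3.48 CPM. All 3, named as the largest decreases of the list, were lower in both day 7 libraries than in either day 1 library. *Bambi*, a decoy receptor of the family, rose from 11.1 and 11.8 to 77.9 and 72.3 CPM. *Acvr2b*, an activin receptor, rose from 0.325 and 0.376 to 2.55 and 2.53 CPM, a call lost with a pseudocount of 5.

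Insulin-like growth factor genes gave 3 higher and 6 lower of 15 tested. *Igf1* fell from 10.7 and 9.44 to 0.900 and 1.55 CPM, while *Igf2*, the fetal ligand, rose from 19.9 and 21.0 to 53.5 and 56.0 CPM. The pappalysins, proteases that release IGF from binding proteins, both fell. *Pappa* went from 39.9 and 39.5 to 5.49 and 4.68 CPM and *Pappa2* from 63.9 and 68.6 to 19.1 and 21.2 CPM. *Igfbp2*, a binding protein, rose from 5.34 and 6.87 to 20.7 and 18.8 CPM, and *Stc2*, which encodes an inhibitor of pappalysins, from 9.03 and 10.4 to 20.6 and 21.7 CPM. The call of *Stc2* was lost with a pseudocount of 5 and without the day 1 library of replicate 1.

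FGF and Notch genes had few calls, 2 higher and 2 lower of 17 and 1 higher and 2 lower of 12. *Fgfr3*, an FGF receptor of cartilage and bone, rose from 28.8 and 27.6 to 114 and 110.2 CPM, and *Spry1*, a feedback inhibitor, from 15.8 and 13.8 to 43.7 and 44.2 CPM. The ligands *Fgf18*, from a mean of 8.84 to 1.96 CPM with a call lost at a pseudocount of 5, and *Fgf7*, from 46.4 and 47.0 to 21.2 and 20.1 CPM, fell. The Notch ligands moved in opposite directions. *Jag2* rose from 3.19 and 3.04 to 83.3 and 78.1 CPM (Log2FC 4.31, standard error 0.06, adjusted p = 6.4e-28 in limma), and *Jag1* fell from 61.4 and 58.5 to 26.7 and 24.9 CPM. *Lfng*, a glycosyltransferase that tunes Notch receptors, fell from 23.8 and 24.6 to 7.41 and 8.59 CPM. In this list edgeR and DESeq2 called 3 genes higher.

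Natriuretic peptide genes were called in 1 case each way among 6 tested, while edgeR and DESeq2 each called 1 higher and 2 lower. *Npr3*, the clearance receptor, fell from 99.5 and 99.1 to 9.75 and 9.08 CPM. *Ostn*, osteocrin, a bone-derived ligand of that receptor, rose from 0.856 and 0.627 to 3.30 and 2.32 CPM, a call lost with a pseudocount of 5 and without the day 7 library of replicate 1. Among 4 tested genes of the C1q and TNF related family, *C1qtnf3* fell from 172 and 179 to 14.5 and 13.3 CPM. *Fam132a*, now named *C1qtnf12*, rose from 52.9 and 54.0 to 319 and 335 CPM. In this family edgeR and DESeq2 each called 1 gene higher and 2 lower.

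Cells induce interferon-stimulated genes against viruses. Of 49 tested, 20 were called lower, 1 higher and 28 were not called, with a median Log2FC of -0.77. The count of genes called lower dropped to 13 with a pseudocount of 5, a setting that shrinks the Log2FC of genes at low CPM. The sensors of foreign RNA and DNA gave 4 of 6 lower and the transcription factors 2 of 5. *Ifit1*, which binds viral RNA, fell from 29.9 and 30.2 to 0.990 and 2.04 CPM, a 19.8-fold lower mean (Log2FC -3.66, standard error 0.15, adjusted p = 9.8e-18 in limma). *Oasl1*, an oligoadenylate synthetase-like protein, fell from 18.3 and 18.5 to 1.38 and 1.94 CPM. *Cxcl10*, a chemokine for T cells, fell from 19.2 and 19.4 to 2.94 and 2.57 CPM. *Isg15*, a ubiquitin-like protein and a common marker of the response, did not follow, with 68.8 and 63.5 CPM at day 1 and 63.4 and 62.6 CPM at day 7 (Log2FC -0.07, limma, chosen after its values were seen). Members of the *Ifit*, *Oas* and *Gbp* families are similar and can share reads.

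Factors of the interferon response bind a repeat of GAAA, searched here on both strands as GAAA, any 2 bases and GAAA again. The 250 bases before the start sites of the members with the largest decreases are shown in the same way (RefSeq, GRCm38.p6), with the repeat in capitals, which reads as TTTC, 2 bases and TTTC where it lies on the other strand. Overlapping matches were counted.
Ifit1, chr19:34640639-34640888, plus strand: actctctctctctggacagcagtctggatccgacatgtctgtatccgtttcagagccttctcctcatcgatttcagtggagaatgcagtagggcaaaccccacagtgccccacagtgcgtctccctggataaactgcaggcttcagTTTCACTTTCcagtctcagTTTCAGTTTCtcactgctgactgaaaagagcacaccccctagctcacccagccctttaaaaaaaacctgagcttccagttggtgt
Oasl1, chr5:114922990-114923239, plus strand: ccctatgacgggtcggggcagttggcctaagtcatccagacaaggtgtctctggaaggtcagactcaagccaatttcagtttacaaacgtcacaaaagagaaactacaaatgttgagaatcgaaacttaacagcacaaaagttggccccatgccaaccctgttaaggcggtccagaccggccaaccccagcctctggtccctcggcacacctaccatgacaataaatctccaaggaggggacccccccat
Cxcl10, chr5:92348890-92349139, minus strand: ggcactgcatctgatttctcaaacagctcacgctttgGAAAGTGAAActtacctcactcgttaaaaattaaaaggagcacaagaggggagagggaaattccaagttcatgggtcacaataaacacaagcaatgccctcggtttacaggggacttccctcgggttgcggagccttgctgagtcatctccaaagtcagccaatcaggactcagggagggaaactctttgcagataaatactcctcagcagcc

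*Ifit1* holds 2 such repeats and *Cxcl10* 1, and these letters are not in the window of *Oasl1*. Of the 14 interferon-stimulated genes called in either direction with an entry, 7 hold the repeat (50%), and of all 37 tested ones 15 (40.5%). In comparison, 8.60% of all genes called lower with an entry, 3.11% of the tested genes with an entry and 2.98% of all promoter windows hold it.

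The interferon-induced membrane genes form a cluster on chromosome 7 of GRCm39 and did not move as 1 unit. *Ifitm5* (140528871 to 140532098, minus strand), the member used by osteoblasts, rose 59.9-fold. Its neighbor *Ifitm2* (140534738 to 140536228) was not called, with a Log2FC of 0.22. *Ifitm1* (140546316 to 140549743) rose from 0.413 and 0.565 to 3.39 and 2.53 CPM, a call lost with a pseudocount of 5, and *Ifitm3* (140589499 to 140591282) fell from 154 and 156 to 54.7 and 56.1 CPM. *Ifitm6*, beside *Ifitm3*, did not pass the filter on low values, and *Ifitm10*, farther along the chromosome, was called lower (Log2FC -1.06), a call lost with a pseudocount of 5 (Log2FC -0.45).

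Antigen presentation on MHC class I, which interferon also raises, gave 3 of 20 genes lower and 0 higher. *Tapbp*, tapasin, which loads peptides, fell from 451 and 445 to 139 and 137 CPM (Log2FC -1.69, standard error 0.04, adjusted p = 1.5e-23 in limma). *Erap1*, a peptide-trimming protease, fell from 66.9 and 64.5 to 21.3 and 20.8 CPM, and the immunoproteasome subunit *Psmb10* from 55.1 and 51.9 to 25.5 and 23.2 CPM, a call lost with a pseudocount of 5. In the higher direction 6 had an unadjusted p below 0.05 in limma, and edgeR and DESeq2 called 0.

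Chemokines and inflammatory cytokines gave 8 of 15 genes lower and 1 higher. *Cxcl12*, the chemokine that retains blood stem cells in marrow and binds ACKR3, fell from 276 and 288 to 70.6 and 69.5 CPM (Log2FC -1.99, standard error 0.05, limma). *Ccl5* fell from 8.27 and 6.90 to 1.56 and 1.34 CPM, a call lost with a pseudocount of 5, at which, as among genes averaging 5 CPM or more, 4 genes of the list were called lower. *Ptgs2*, the enzyme that makes prostaglandins, rose from 14.6 and 13.2 to 37.6 and 36.2 CPM. Of the macrophage and osteoclast markers 3 of 17 were tested. *Fcer1g* was called lower, from 6.97 and 6.96 to 2.13 and 2.50 CPM, lost with a pseudocount of 5. The defining markers *Adgre1* and *Tyrobp* had 0 reads in all 4 libraries.

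**Figure D5:**
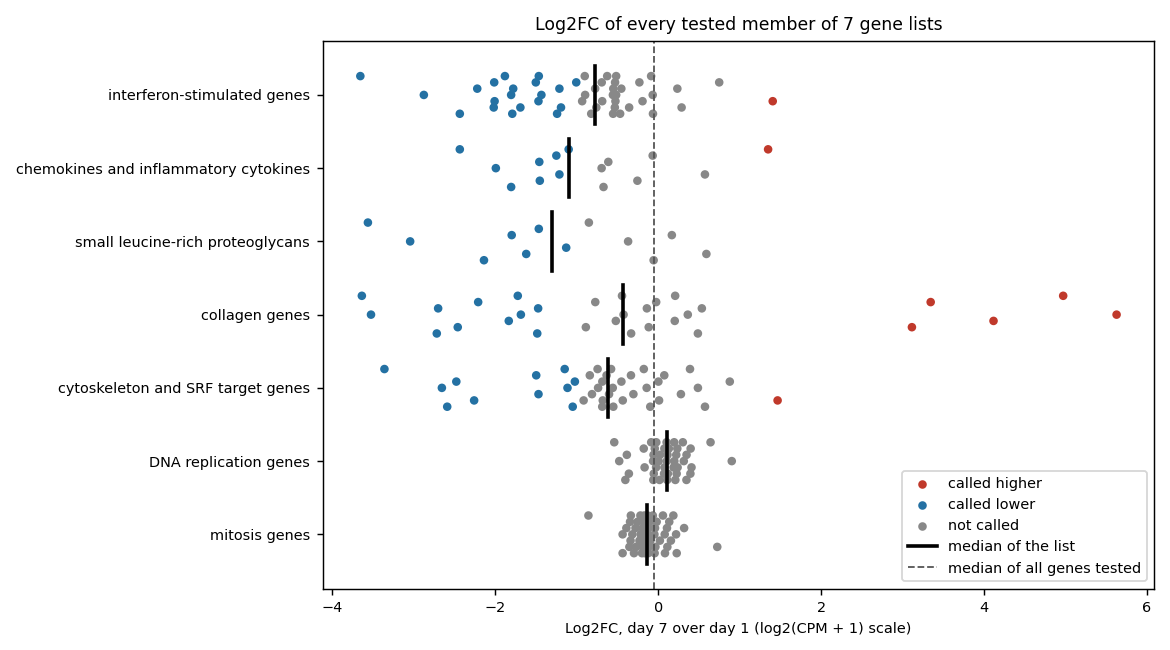
Log2FC between day 7 and day 1 on the log2(CPM + 1) scale of every tested member (1 point per gene, colored by call) of 7 lists, with a black bar at the median of the list and a dashed line at the median of all genes tested, -0.05. The medians of the upper 5 lists lie between -1.30 and -0.44, and the genes of DNA replication and mitosis lie within 1 of 0.

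Of 44 DNA replication genes and 54 mitosis genes, limma called 0 in either direction. The median Log2FC was 0.10 for replication and -0.14 for mitosis. Small shifts were measurable, since in replication 22 genes lay above 0 and 7 below with an unadjusted p below 0.05, and in mitosis 10 lay above and 34 below. edgeR and DESeq2 each called 1 replication gene higher, *E2f2*, and 0 mitosis genes. *Mki67*, the proliferation marker Ki-67, had 299 and 267 CPM at day 1 and 257 and 259 CPM at day 7 (Log2FC -0.13, standard error 0.05, adjusted p = 0.023 in limma).

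Among inhibitors of the cycle and targets of p53, 4 of 34 were called higher and 5 lower. *Cdkn1a*, which encodes the CDK inhibitor p21, rose from 31.3 and 29.3 to 423 and 431 CPM, a 14.1-fold increase (Log2FC 3.78, standard error 0.04, adjusted p = 4.5e-30 in limma). *Rb1*, the retinoblastoma protein that restrains entry into S phase and is bound by large T antigen, rose from 17.8 and 20.5 to 58.2 and 52.6 CPM. *Sesn2*, a stress-induced regulator of mTOR, rose from 40.0 and 37.0 to 84.4 and 80.8 CPM. Of the 20 p53 targets tested, which leave out *Cdkn1a* because it is counted with the inhibitors, 2 were called higher and 3 lower. *Fas*, a death receptor, went from 10.2 and 9.88 to 2.13 and 1.34 CPM, and *Plk2*, a polo-like kinase, from 65.8 and 64.7 to 16.9 and 14.2 CPM. *Ccnd2*, cyclin D2, fell from 19.7 and 20.5 to 5.55 and 6.97 CPM.

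Genes of lipid synthesis showed few calls. In cholesterol synthesis 2 of 31 were higher and 3 lower, the 3 lower all among the 23 enzymes, whose median Log2FC was -0.58. *Hmgcs1*, which makes the precursor HMG-CoA, had 543 and 537 CPM at day 1 and 364 and 356 CPM at day 7 and was not called (Log2FC -0.58, standard error 0.04, adjusted p = 1.4e-13 in limma). *Mvk*, mevalonate kinase, fell from 92.1 and 95.3 to 42.3 and 45.2 CPM, *Acat2*, a thiolase, from 110.2 and 112 to 42.5 and 50.3 CPM, and *Tm7sf2*, a sterol reductase, from 14.3 and 18.1 to 5.64 and 6.30 CPM, lost with a pseudocount of 5. *Insig2*, which retains the sterol sensor in the endoplasmic reticulum, rose from 56.0 and 55.5 to 169.9 and 173 CPM, and *Abca1*, a cholesterol exporter, from 1.65 and 1.51 to 8.55 and 9.12 CPM.

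In fatty acid synthesis and storage 1 of 25 was higher and 3 were lower (4% and 12%, beside 4.49% and 4.62% of all genes tested). *Me1*, malic enzyme, which supplies NADPH, rose from 115 and 122 to 291 and 280.1 CPM. *Elovl6*, a fatty acid elongase, fell from 110.2 and 117 to 36.1 and 34.4 CPM. *Cpt1a*, which admits fatty acids to mitochondria, had 54.9 and 54.0 CPM at day 1 and 24.3 and 25.6 CPM at day 7, lost with a pseudocount of 5. *Lpin1*, a phosphatidate phosphatase, was called at a Log2FC of -1.03, which became -0.98 with TMM scaling, -0.97 with quantile normalization and -0.91 with a pseudocount of 5 and was then not called.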

How the data were processed

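RNA of 8 Ocy454 differentiation libraries (2 per day) was analysed, and 6 sorted libraries were not used here. STAR and HTSeq made the counts per the study's methods, and the authors deposited CPM values of 39179 genes. GRCm39 is named in the submitters' processing notes and, in the study's methods, for the sorted libraries, and the build and annotation behind the differentiation table are not given in the sources used here. All CPM values (100%) were whole multiples of 1 read within 0.01, so reads were recovered. Genes with CPM above 1 in at least 1 of 8 libraries entered limma 3.58.1 (R 4.3.3; lmFit, 1 mean per day, eBayes with trend) as log2(CPM + 1) of the deposited values, and p-values were adjusted by Benjamini-Hochberg. A count test was not the main one because the deposited unit is CPM. On simulated data of 12725 genes, limma recovered 89.6% of 67 genes changed 2.5-fold. It recovered 100% of 67 genes changed 4-fold and of 66 changed 8-fold, with 0 false calls. The changed genes were drawn only from those averaging above 2 CPM over the 8 libraries, and their spread was assumed. Recovery of genes at lower CPM was therefore not tested. edgeR 4.0.16 and DESeq2 1.42.0 on the recovered reads, other pseudocounts (0.1 and 5), filters, TMM, quantile normalization, no trend, the 4 libraries alone, an adjusted p below 0.05, a replicate block and each library left out were alternatives.

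The members and the 41 gene lists were chosen with earlier results of these data known. Of the 1036 listed genes, 1034 were found in the table, 21 of them by gene ID under an older symbol, and 837 were tested. Named genes were the 10 largest increases and decreases among the 905 called genes with non-overlapping days and a mean of at least 5 CPM, up to 3 called members per list and direction, and 27 fixed genes, and others were chosen after their values were seen. Some listed genes are counted with their list but not reported here by name. For a gene without reads, 3 reads is the upper limit, which covers counting error only. Coordinates are from GENCODE M39 (GRCm39), which holds 34199 of the table's identifiers (87.3%), and promoters from RefSeq. How reads shared by similar or overlapping genes were counted, and whether strand was used, is not given in the sources used here. Tables and plots were made with Python 3.11.15, pandas 2.3.3 and matplotlib 3.10.9.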

Additional observations from a re-analysis of the deposited data

How the results depend on the processing

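The number of genes called higher at day 7 was between 387 (pseudocount 5) and 876 (edgeR on recovered reads) under the 12 alternatives other than leaving out a library, and that of genes called lower between 333 (pseudocount 5) and 792 (pseudocount 0.1). The 571 genes called higher were all among the 876 of edgeR and the 848 of DESeq2. In the lower direction edgeR called 767 and DESeq2 728. Of the 588 called lower, 579 were called by edgeR, 577 by DESeq2 and 333 with a pseudocount of 5. Leaving out each library in turn, where the lone sample of a day was assumed to vary like the other days, gave 576 to 583 genes higher and 591 to 605 lower. Replicate numbers did not pair the samples, since the deviations of same-numbered day 1 and day 7 libraries had a correlation of 0.0114 over 12725 genes (-0.0253 to 0.0611 over the pairs of days), and the fit with a replicate block called 571 higher and 588 lower. TMM scaling gave 592 and 547 and moved the median Log2FC of all genes by 0.04. Leaving out the trend of eBayes, or the filter on low values, gave 570 genes higher and 588 lower. The size of the adjusted p-values depended strongly on these settings, however. With either of them removed, those of *Ndufa4l2*, *Car9*, *Ifitm5* and *Ibsp* were many orders of magnitude larger, though still below 0.01. The very small p-values printed for single genes therefore rest on the trend and the filter. Of the 134 called genes named by rank, by list or as fixed genes, 18 lost their call under at least 1 of the 16 alternatives and 0 changed sign. Other genes in the text are outside this tally, and of these *Ecm2*, *Cd34* and *Ifitm10* lost their call with a pseudocount of 5. *Ptger4*, which was not called, ranged from -0.0943 (without day 7 replicate 1) to 0.188 when a library was left out. The causes were not tested. Depth limits what can be said of genes below the level of 3 reads, 0.0886 to 0.106 CPM per library.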

Other observations

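Stress and early response genes were not uniformly changed at day 7. Of 25 immediate early genes, which cells induce within minutes of a stimulus, 6 were called higher and 1 lower by limma. *Klf4*, a zinc finger factor of differentiation, rose from 62.7 and 58.6 to 652 and 661 CPM (Log2FC 3.42, standard error 0.04, adjusted p = 5.7e-30 in limma), and *Klf2*, a factor induced by flow in endothelium, rose from a mean of 16.8 to 150.2 CPM. *Atf3*, a stress factor, rose from 3.90 and 2.76 to 18.6 and 18.8 CPM. *Jun* fell from 50.9 and 49.7 to 20.5 and 22.3 CPM. Of 29 tested genes of amino acid stress under ATF4, 5 were called higher and 0 lower. In the lower direction 5 had an unadjusted p below 0.05, and edgeR and DESeq2 called 0. *Vldlr*, a lipoprotein receptor, rose from 119 and 120.2 to 457 and 446 CPM, *Ddit3*, the factor CHOP, from 51.6 and 48.9 to 154 and 153 CPM, and *Chac1*, a glutathione-degrading enzyme, from 22.3 and 23.8 to 74.6 and 75.3 CPM. In the endoplasmic reticulum list 3 of 37 were higher and 0 lower in limma, in edgeR and in DESeq2, with 13 below 0 at an unadjusted p below 0.05. *Creb3l1*, a membrane-bound factor that osteoblasts use to make collagen, rose from 355 and 357 to 904 and 885 CPM, *Herpud1*, an adaptor of protein degradation, from 96.8 and 95.8 to 232 and 247 CPM, and *Dnajb9*, a co-chaperone, from 13.1 and 15.0 to 32.0 and 31.2 CPM, lost with a pseudocount of 5. Heat shock genes gave 1 of 22 higher and 1 lower (4.55% each), near the 4.49% and 4.62% of all genes tested. The higher one was *Cryab*, a small chaperone, from 80.8 and 82.7 to 395 and 383 CPM. The lower one was *Hsph1*, from 152 and 154 to 63.0 and 65.6 CPM. Of 13 listed genes of mitochondrial DNA, 6 had no reads in the 4 libraries and were not tested. Limma called 0 of 7 tested genes of mitochondrial DNA and 0 of 24 lysosome genes, with 2 higher and 4 lower in the former and 11 higher and 9 lower in the latter at an unadjusted p below 0.05. edgeR and DESeq2 called 0 of the former and 1 of the latter, higher.

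Chondrocyte markers gave 4 of 11 tested genes higher and 1 lower in limma, and 4 higher and 2 lower in edgeR and in DESeq2. *Ihh*, Indian hedgehog, the signal of hypertrophic cartilage, rose from 0.295 and 0.251 to 19.5 and 18.7 CPM (Log2FC 3.98, standard error 0.10, adjusted p = 3.7e-22 in limma). *Sox6*, a cartilage factor, rose from 16.9 and 15.5 to 90.9 and 81.3 CPM. *Matn3*, matrilin 3, fell from 8.56 and 7.68 to 1.38 and 1.44 CPM. The summed level of the list was 251 to 256 CPM at day 1 and 1331 to 1359 CPM at day 7, most of it at day 7 *Col11a2*. The defining cartilage genes did not rise with it, since *Acan*, aggrecan, had 60.1 and 59.9 CPM at day 1 and 50.4 and 50.9 CPM at day 7, *Col2a1* 1.80 and 1.57 CPM and 2.19 and 2.01 CPM, and *Col10a1* at most 0.470 CPM. Of other lists, endothelial markers gave 1 of 3 tested higher, *Vwf*, from 1.12 and 0.690 to 6.30 and 4.65 CPM (lost with a pseudocount of 5), neuron and glia markers 1 of 5, *Tubb3*, and epithelial markers 1 of 1 lower, *Krt14*, a keratin, from 29.1 and 27.9 to 12.2 and 10.8 CPM. *Krt5*, its partner in epithelium, had 0 reads in all 4 libraries. Limma called 0 of 3 tested skeletal muscle markers and 0 of 1 adipocyte markers, with 3 and 1 at an unadjusted p below 0.05. For these lists edgeR and DESeq2 each called 1 muscle marker higher and 0 adipocyte markers. Of the neuron and glia markers each called 2 higher, and edgeR called 1 lower.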
